A study of Mus musculus with 6 samples.

Results

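The cells described here were cycling Hmga2-positive nuclei of a mouse brain tumor, the Foxr2 p53LOF tumor, and they numbered 572 of the 10379 barcodes in their library and of the 22125 barcodes in the 3 libraries of the series. They were selected on RNA counts. A barcode was kept with 1000 or more UMIs (unique molecular identifiers, 1 per captured RNA molecule), a mitochondrial share of at most 5%, 2 or more UMIs of Hmga2, 2 or more UMIs of Mki67 and Top2a together, and less than 0.2% of its UMIs on the immune genes Dock2, Ptprc, Inpp5d, Apbb1ip and Csf1r. They were set against 967 non-cycling nuclei, which passed the same limits and held no UMI of Mki67 or Top2a. The 283 nuclei with exactly 1 such UMI belonged to neither group.

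The tumor was raised in a C57BL/6J mouse by in utero electroporation at embryonic day E12.5 of the ganglionic eminences, the ventral forebrain zone that produces interneurons and part of the glia. The plasmids carried Foxr2 with GFP and the luciferase Akaluc with GFP, each driven by the broadly active CAG promoter in piggyBac vectors, and a p53 guide RNA with Cas9. Foxr2 alone is the second group, with overexpression of Foxr2 and no p53 guide. Nuclei were read with the 10x Multiome assay, which measures RNA and open chromatin (ATAC) in the same nucleus, and the p53LOF group is 1 library from 1 tumor, so no comparison had biological replicates. Intervals of levels, shares and ratios cover counting error only, and intervals of medians or of counts of pairs cover the spread over nuclei of this library.

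Mki67 encodes Ki-67, a protein that coats mitotic chromosomes, and Top2a encodes the topoisomerase that untangles replicated DNA. The transcripts of both accumulate from S phase into mitosis. Hmga2 is a chromatin protein of fetal and tumor cells that is silent in most adult brain cells. A dividing cell first switches on replication genes through E2F factors, and later switches on mitotic genes through the MuvB complex with B-MYB and FOXM1. MuvB binds a short promoter word called the CHR, often beside CCAAT boxes bound by NF-Y.

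Promoters that hold these words are shown for genes higher in cycling nuclei, as RefSeq sequence (build GRCm38.p6) from 250 bases before to 30 bases after the gene start. In the first set, chosen as mitotic genes with a CHR, capitals mark TTTGAA and CCAAT, each on either strand.
Depdc1a, chr3:159495183-159495462, plus strand: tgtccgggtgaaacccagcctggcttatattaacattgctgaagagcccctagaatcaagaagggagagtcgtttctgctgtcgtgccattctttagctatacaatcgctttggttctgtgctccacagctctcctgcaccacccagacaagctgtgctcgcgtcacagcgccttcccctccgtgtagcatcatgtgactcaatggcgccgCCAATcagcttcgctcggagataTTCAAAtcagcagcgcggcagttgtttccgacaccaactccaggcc
Kif11, chr19:37376132-37376411, plus strand: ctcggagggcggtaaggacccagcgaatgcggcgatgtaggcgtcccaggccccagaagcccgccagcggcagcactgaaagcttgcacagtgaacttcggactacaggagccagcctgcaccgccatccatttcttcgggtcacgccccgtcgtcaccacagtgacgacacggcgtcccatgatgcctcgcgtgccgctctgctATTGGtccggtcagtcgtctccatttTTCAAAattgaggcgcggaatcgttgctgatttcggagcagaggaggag
Hmmr, chr11:40733408-40733687, minus strand: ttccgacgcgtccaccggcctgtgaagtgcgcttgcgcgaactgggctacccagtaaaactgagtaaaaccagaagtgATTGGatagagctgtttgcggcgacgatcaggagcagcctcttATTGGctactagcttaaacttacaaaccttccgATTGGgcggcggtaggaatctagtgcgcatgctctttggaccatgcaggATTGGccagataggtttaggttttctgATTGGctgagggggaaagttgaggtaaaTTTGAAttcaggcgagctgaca
Ttk, chr9:83834439-83834718, plus strand: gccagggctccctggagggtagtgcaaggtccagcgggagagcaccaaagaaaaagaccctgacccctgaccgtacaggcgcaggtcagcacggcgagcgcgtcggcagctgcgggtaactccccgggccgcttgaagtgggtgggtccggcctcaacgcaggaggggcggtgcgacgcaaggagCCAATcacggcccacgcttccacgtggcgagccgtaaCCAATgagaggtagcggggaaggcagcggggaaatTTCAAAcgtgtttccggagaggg
Aspm, chr1:139454523-139454802, plus strand: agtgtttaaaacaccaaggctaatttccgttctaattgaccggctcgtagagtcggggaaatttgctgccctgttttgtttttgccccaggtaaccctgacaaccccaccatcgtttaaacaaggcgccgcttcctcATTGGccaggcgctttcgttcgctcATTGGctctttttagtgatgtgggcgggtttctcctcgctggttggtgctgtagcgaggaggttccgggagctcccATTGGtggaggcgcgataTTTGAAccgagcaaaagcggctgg

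In Depdc1a and Kif11 the CHR began 16 and 19 bases before the start, and in Hmmr, Ttk and Aspm it began at bases 9, 8 and 7 after it. Hmmr held 5 CCAAT words. In the next set, 2 replication genes, capitals mark an E2F word, spelled TTTGGCGC, TTTCCCGC, TTTGCCGC or TTTCGCGC on either strand. Words on opposite strands overlap in Mcm6.
Mcm6, chr1:128359676-128359955, minus strand: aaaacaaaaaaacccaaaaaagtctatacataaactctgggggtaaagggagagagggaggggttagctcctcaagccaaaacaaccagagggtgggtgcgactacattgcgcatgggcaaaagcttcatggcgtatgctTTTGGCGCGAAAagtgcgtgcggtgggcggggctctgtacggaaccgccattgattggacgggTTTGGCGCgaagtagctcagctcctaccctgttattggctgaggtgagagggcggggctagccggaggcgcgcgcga
Pola1, chrX:93632126-93632405, minus strand: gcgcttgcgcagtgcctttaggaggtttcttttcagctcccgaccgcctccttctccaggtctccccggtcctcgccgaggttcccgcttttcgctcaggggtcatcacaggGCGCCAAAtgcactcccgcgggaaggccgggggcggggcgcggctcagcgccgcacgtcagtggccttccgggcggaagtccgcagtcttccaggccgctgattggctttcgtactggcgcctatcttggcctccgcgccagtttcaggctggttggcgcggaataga

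The last promoter, Uhrf1, is shown because it lay in 1 of the 2 peaks whose accessibility passed 2-fold below. Capitals mark CCAAT.
Uhrf1, chr17:56303087-56303366, plus strand: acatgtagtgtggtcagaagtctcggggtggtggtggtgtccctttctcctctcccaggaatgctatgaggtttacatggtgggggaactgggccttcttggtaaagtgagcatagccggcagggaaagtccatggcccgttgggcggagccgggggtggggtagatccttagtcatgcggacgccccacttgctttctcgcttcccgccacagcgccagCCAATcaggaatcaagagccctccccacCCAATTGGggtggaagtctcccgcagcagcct

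Promoters were matched by symbol. The CHR word stood in 19 of 23 matched promoters of the kinesin and spindle list (82.6%) and in 27 of 45 of the G2/M list (60%), against 17.4% of all 27025 promoters and 10.8% of the 8323 matched promoters of all genes tested. It stood in 6 of 19 promoters of the mitotic kinase list, in 7 of 19 of the centromere list and in 3 of 28 of the DNA replication list. Over all genes higher in cycling nuclei, 88 of 263 promoters held the CHR word (33.5%) and 37 of 263 an E2F word (14.1%). The E2F words went the other way, with 12 of 28 promoters of the DNA replication list (42.9%), 2 of 23 of the kinesin and spindle list, 2.16% of all promoters and 4.04% of those of all genes tested. CCAAT was common in both, in 18 of 28 and 15 of 23, against 36.6% of all promoters. Among the 59 matched promoters of genes lower in cycling nuclei, 6 held the CHR word and none an E2F word. These are matches of letters in a fixed window.

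The library held 96929539 UMIs and 102529894 ATAC counts over 112924 peaks. Of its barcodes, 9911 passed the UMI and mitochondrial limits, and 19.6% of these (exact binomial 95% interval 18.8 to 20.4) held 2 or more Hmga2 UMIs. In Foxr2 alone replicate 1, 1 of 8925 did, and no barcode met the full rule. Nuclei with 2 or more UMIs of Mki67 and Top2a were 1162 in the p53LOF library and 17 in Foxr2 alone. The genotype cannot be told apart from the library. Of the 572 barcode sequences, 17 also occurred in another library. The counts of Foxr2 alone replicate 2 were not analysed here.

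Members made up 31.4% of the 1822 Hmga2 nuclei under the immune limit (29.3 to 33.6), and 49.2% of all barcodes with 2 or more UMIs of Mki67 and Top2a. As background for the rule, 36 of 1581 neuron reference nuclei (2 or more Rbfox3 UMIs, no Hmga2) had 2 or more UMIs of Mki67 and Top2a, or 2.28%, as did 28 of 1415 oligodendrocyte reference nuclei (2 or more Mog UMIs, no Hmga2), or 1.98%. Of all 1812 nuclei under the immune limit with 2 or more Rbfox3 UMIs, before those with Hmga2 were set aside, 107 held 2 or more Hmga2 UMIs (5.91%, 4.86 to 7.09). Median depth was 11447 UMIs in the neuron reference and 2842 in the oligodendrocyte reference. Mki67 was read in 423 members and Top2a in 539, at 133 CPM and 259 CPM (counts per 1000000 UMIs of the group).

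At the edge of the rule the values changed by degrees. The S-phase list of the study's cell-cycle score, without the rule genes, summed to 723 CPM at 0 UMIs of Mki67 and Top2a, 903 CPM at 1 UMI and 1075 CPM at exactly 2 UMIs. It reached 2105 CPM at 8 or more. The G2/M list summed to 1157, 1280 and 1483 CPM at 0, 1 and 2 UMIs, and to 4111 CPM at 8 or more. Thus the 112 members with exactly 2 UMIs lay nearer to the excluded nuclei with 1 UMI than to the 265 members with 8 or more.

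**Figure D1:**
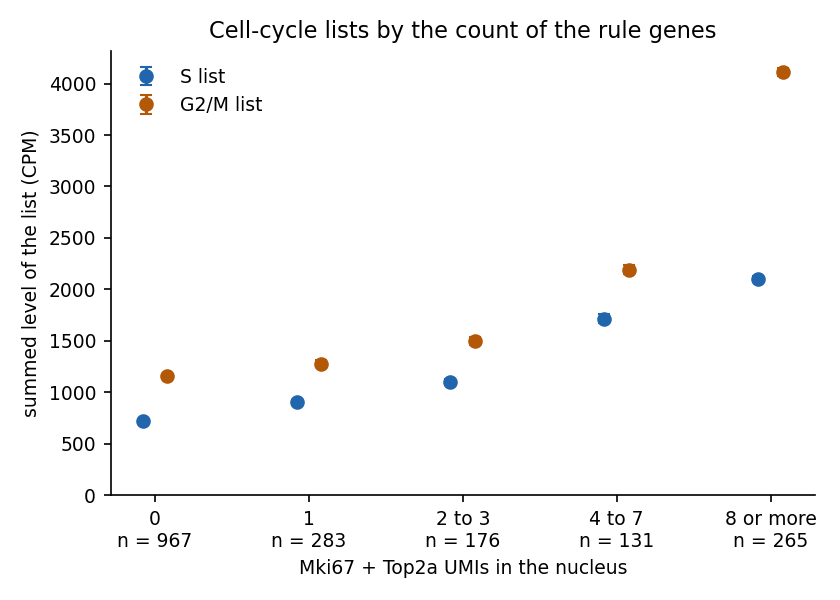
Summed level of the S and G2/M lists in CPM (vertical axis) in Hmga2 nuclei grouped by their count of Mki67 and Top2a UMIs (horizontal axis, n nuclei per group); bars are exact Poisson 95% intervals. The G2/M list rises from 1157 CPM at 0 UMIs to 4111 CPM at 8 or more, and the S list from 723 to 2105 CPM.

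Cycling nuclei held more RNA and ATAC counts. Members had a median of 19998.5 UMIs (quartiles 10940 and 41234, range 1049 to 559527), against a median of 8921 in non-cycling nuclei (quartiles 6285 and 13465). Their median number of genes was 5685 against 3444. Their ATAC fragments in peaks had a median of 12219 against 5754. Since deeper nuclei reach 2 UMIs more easily, the rule favors depth. Of the members, 140 exceeded the UMI limit of the study's own quality control, and 312 met all of its limits on genes, UMIs and fragments, against 843 of 967 non-cycling nuclei. Scrublet, a doublet caller, marked 34 members (5.94%, 4.15 to 8.21) and 52 non-cycling nuclei (5.38%, 4.04 to 6.99). The mitochondrial share also moved with the group, with a median of 0.411% in members and 0.0864% in non-cycling nuclei.

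Split by depth, the 191 shallowest members (1049 to 13387 UMIs) carried 3506 CPM of the S list and 4910 CPM of the G2/M list, and the 190 deepest (30741 UMIs and over) carried 1468 and 2735 CPM. Across the same split, oligodendrocyte markers rose from 1008 to 2972 CPM and GFP was 734 and 698 CPM. The rule asks for a fixed 2 UMIs, so a shallow nucleus enters only with a high share of Mki67 and Top2a. The part of the rule in the fall of both lists with depth was not tested.

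To reduce the difference in depth, each member was paired with the non-cycling nucleus of nearest UMI count within 10%. This gave 420 pairs (73.4% of members) with medians of 14644 and 14627.5 UMIs and upper quartiles of 22190.5 and 20064.5. Paired members were shallower than all members and carried more of the cell-cycle lists. The kinesin and spindle list summed to 2308 CPM in paired and 1650 CPM in all members. For the centromere list the sums were 1768 and 1202 CPM. Cycling and non-cycling levels in the gene comparison are those of the pairs, unless stated. At matched RNA depth, the cycling nucleus held more ATAC fragments in 248 of 420 pairs (59.0%, exact binomial interval 54.2 to 63.8). Its median was 9577 fragments against 7860, and the median ratio within pairs was 1.31 (1.08 to 1.44). The excess shrank to a ratio of 0.11 on the log2 scale, from 0.39, inside the study's limits, which cap fragments as well as UMIs. Among paired members, the 310 with more G2/M-list than S-list UMIs had a median log2 fragment ratio of 0.41 (0.14 to 0.56), and the 102 with more S-list UMIs had 0.070 (-0.29 to 0.81). These intervals overlap, and the difference was not tested. Thinned to 2000 UMIs, cycling nuclei showed a median of 1362 genes and non-cycling nuclei 1300.

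**Figure D2:**
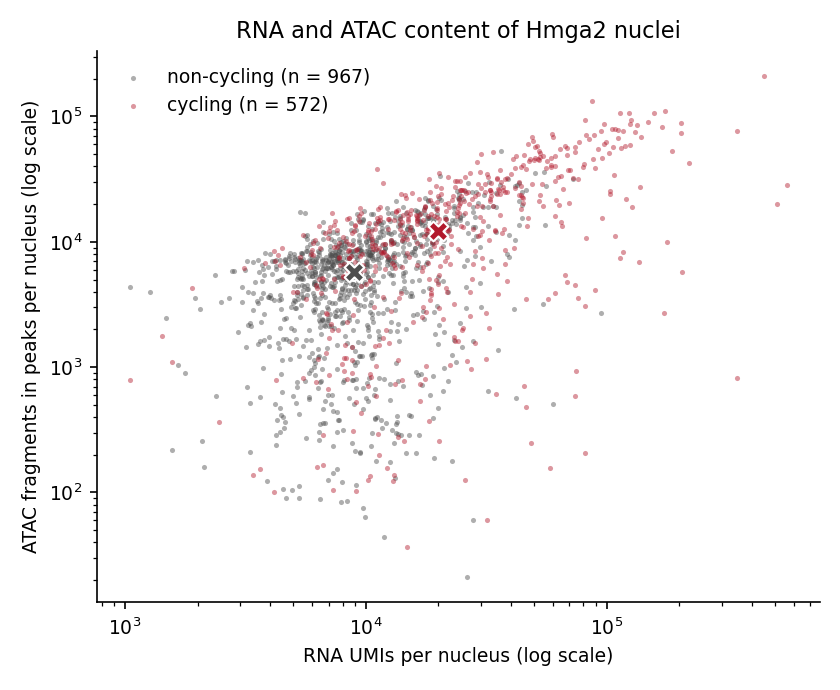
RNA UMIs (horizontal, log scale) and ATAC fragments in peaks (vertical, log scale) of each of the 572 cycling and 967 non-cycling nuclei before pairing; each dot is 1 nucleus and a cross marks the group medians. Cycling nuclei lie toward the upper right, with medians of 19998.5 UMIs and 12219 fragments against 8921 and 5754.

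Over the whole set of members, the list with more UMIs was the G2/M list in 449 (78.5%), the S list in 114 (19.9%) and neither in 9. The members with more G2/M-list UMIs were the deeper ones, with a median of 22213 UMIs and 13963 fragments against 11482 UMIs and 8298 fragments. The lists differ in size and level, so the split orders nuclei and does not stage them.

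The paired nuclei were then compared gene by gene. Of 10505 genes with at least 10 CPM in either group, 335 were 2-fold or more higher in cycling nuclei (3.19% of genes tested) and 81 were 2-fold or more lower (0.771%). The ratio is log2 of (CPM + 1) throughout, and the median over all genes was 0.031. CPM scales both groups to the same total, so a change in total RNA cannot be read from it. Because the groups were chosen by Mki67 and Top2a in these same RNA counts, the cell-cycle genes are a description of what the rule selected. The cell-cycle lists held 222 distinct genes, of which 208 were tested. Of those tested, 169 passed 2-fold higher and none lower. A gene was tested at 10 CPM in either group, so Bub1, at 63.6 and 1.85 CPM, entered through its cycling level alone. The counts of list genes past 2-fold were thus partly set by that minimum.

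DNA replication genes were higher nearly throughout. Of 36 tested genes of this list, 32 were 2-fold or more higher, with a median log2 ratio of 1.88. Pola1, the catalytic subunit of the primase-polymerase, had 368 CPM in cycling and 127 CPM in non-cycling nuclei (log2 ratio 1.53). Atad2, a chromatin ATPase of replicating cells, had 249 and 31 CPM (2.98). Dtl, which targets the licensing factor Cdt1 for destruction in S phase, had 115 and 13.5 CPM (3.00). The widest ratio belonged to Ticrr, which activates the replicative helicase at origins (3.93), and the narrowest to Mcm7, a helicase subunit (0.61). Thinned to 2000 UMIs, Pola1 was read in 47.1% of cycling nuclei, 17.8% of non-cycling nuclei and 13.2% of neuron reference nuclei, so it was also read where no cycling was called.

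G1/S control was split. Of 17 genes, 9 passed 2-fold higher and the median was 1.04. Of the 5 E2F factors, E2f8 (3.03), E2f2 (1.89), E2f1 (1.72) and E2f7 (1.70) passed, and E2f3 had 177 and 134 CPM (0.40). Ccne2, a cyclin of late G1, was at 1.86. The D cyclins and their kinases did not pass: Ccnd1 had 250 and 213 CPM (0.23), Ccnd2 had 159 and 172 CPM (-0.11), Ccnd3 had 48.2 and 38.4 CPM (0.32), Cdk4 had 65.5 and 47.3 CPM (0.46) and Cdk6 had 80.2 and 116 CPM (-0.53).

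Mitotic kinases and regulators were higher in 22 of 23 tested genes, with a median of 2.42. Bub1, a spindle checkpoint kinase, had 63.6 and 1.85 CPM (4.50, interval 3.73 to 5.41). Ttk, the kinase that starts that checkpoint, had 66.7 and 2.42 CPM (4.31). Cdk1, the kinase that drives entry into mitosis, had 43.2 and 3.69 CPM, and Ccnb1, its cyclin, 27.9 and 1.85 CPM. Foxm1, the factor that activates this set, was itself higher at 2.23.

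The kinesin and spindle list, of motors and other spindle and midbody proteins, showed the widest median, 3.35, with 24 of 25 genes past 2-fold. Kif11 (chr19:37376403-37421859), the motor that pushes spindle poles apart, had 157 CPM in cycling and 4.83 CPM in non-cycling nuclei (4.76, 4.27 to 5.30). It was read in 58.3% of the 420 cycling nuclei and in 7.38% of the 420 paired ones. Kif15 had 143 and 6.11 CPM (4.34), Kif4, which organizes the central spindle, 95.7 and 3.84 CPM (4.32), Kif14, needed for cytokinesis, 55.6 and 1.71 CPM (4.39), and Hmmr, a microtubule-binding protein of the spindle, 78.5 and 2.70 CPM (4.42). Ckap5, a microtubule polymerase used outside mitosis too, was the only member of the list short of 2-fold, with 362 and 224 CPM (0.69).

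Centromere and kinetochore genes followed, with 21 of 22 past 2-fold and a median of 3.24. Knl1 (chr2:119047119-119105501), the scaffold that holds checkpoint proteins at the kinetochore, had 190 and 4.69 CPM (5.07, 4.58 to 5.61). Cenpe, a kinetochore motor, had 173 and 8.53 CPM (4.19). At 2000 UMIs, Knl1 was read in 126 of 416 cycling nuclei (30.3%, 25.9 to 35.0), in 0 of 416 non-cycling nuclei, and in 0.759% of neuron reference nuclei. At full depth it was read in 65.5% of the 420 cycling nuclei and in 23 of the 420 paired ones (5.48%). Bub3, which cells also use outside mitosis, was the exception at 0.85.

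Depdc1a, Neil3, Troap and Cep55, also among the 15 highest, stood on no list. Depdc1a (chr3:159495433-159529955) had 333 UMIs in cycling and 0 in paired non-cycling nuclei, at least 104-fold higher against a floor of 3 UMIs over the group. Neil3, a DNA glycosylase of dividing cells, had 364 and 2 UMIs (171-fold in CPM without the added 1, interval 47.0 to 1419). Troap, a spindle-associated protein, had 228 and 2 UMIs (107-fold, 29.3 to 891). Cep55, which acts in the last cut between daughter cells, was at 4.20. The list genes Ncapg, a condensin subunit (4.31), and Esco2, which acetylates cohesin in S phase (4.29), were also among the 15.

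In the condensin and cohesin list, 7 of 14 genes passed 2-fold, with a median of 1.49. Those that passed were the condensin subunits Ncapg, Ncapg2 (3.15), Smc2 (2.53), Ncapd2 (2.44), Ncaph (2.12) and Smc4 (2.00), and the cohesin acetylase Esco2. The condensin subunits Ncapd3 (0.97) and Ncaph2 (0.81) did not pass. Neither did the 5 tested core cohesin genes, among them Stag1 at 453 and 376 CPM (0.27), Stag2 at 255 and 218 CPM (0.23) and Smc3 at 151 and 113 CPM (0.41). In DNA repair, 17 of 20 genes passed, among them Brca1 (96.5 and 8.81 CPM, 3.31), Polq (117 and 9.09 CPM, 3.54) and Fancd2 (3.74), whereas Atr, the replication stress kinase, had 162 and 120 CPM (0.43).

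Of 10 tested replication-dependent histone genes, 8 passed 2-fold, with a median of 1.91. Their transcripts mostly lack long poly(A) tails and the family is near-identical in sequence, so single members are uncertain. Chromatin assembly had 15 of 21 genes higher, with a median of 1.37. Uhrf1, which recruits the maintenance methylase to new DNA, had 38.4 and 3.84 CPM (3.02), and Dnmt1, that methylase, 154 and 74.0 CPM (1.05). Ezh2, the methylase of Polycomb repressive complex, had 257 and 136 CPM (0.91).

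**Figure D3:**
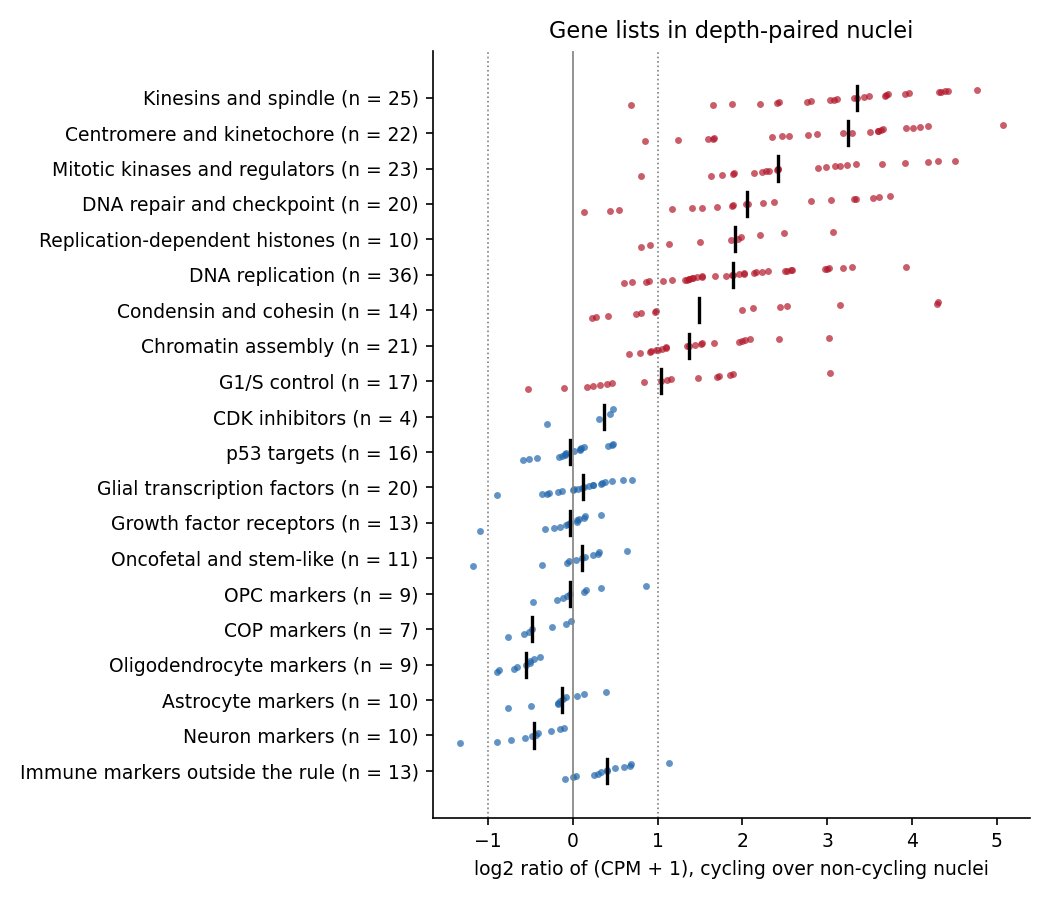
Log2 ratio of (CPM + 1), cycling over non-cycling, for each tested gene (dot) of 20 lists in the 420 depth-paired nuclei; black bars are list medians, dotted lines mark 2-fold, and n is the number of genes tested. The 9 cell-cycle lists in red have medians from 1.04 to 3.35, and the other lists in blue have medians from -0.56 to 0.40.

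Of 8 CDK inhibitors, 4 reached 10 CPM, and none of these passed 2-fold. Of those below 10 CPM, Cdkn3 had 31 and 3 UMIs (9.72-fold in CPM without the added 1, 3.03 to 49.7) and Cdkn2c had 19 and 4 UMIs (1.17, 0.23 to 2.84). Cdkn2a, the locus of p16 and ARF, had 125 and 101 CPM (0.30), and Cdkn1a, which encodes p21, had 25.7 and 18.2 CPM (0.47). None of 16 tested p53 targets passed in either direction, with a median of -0.036. Over all genes tested 3.19% passed higher and 0.771% lower, so finding none in these 2 short lists lies near that share. Mdm2, which degrades p53, had 138 and 147 CPM (-0.10). Trp53 itself, the edited gene, had 54.1 and 49.7 CPM (0.12, -0.086 to 0.33). The lesion made by Cas9 is in the DNA, so these RNA reads do not check the label. No UMI of the Cas9 or p53 guide features was found in either group.

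Of 20 tested glial transcription factors, none passed 2-fold at matched depth, and the median was 0.12, with a range from -0.89 to 0.70. Finding none of 20 lies near the share over all genes tested, 3.19% higher and 0.771% lower. St18, of the oligodendrocyte lineage, had 121 and 225 CPM (-0.89), and Id2, an inhibitor of bHLH factors, 58.9 and 36.0 CPM (0.70). Nfia, which promotes gliogenesis, had 1247 and 1246 CPM, and Sox10, of the oligodendrocyte lineage, 109 and 101 CPM (0.11). Olig2, of oligodendrocyte precursors, had 41.8 and 35.2 CPM (0.24). Markers of oligodendrocyte precursor cells (OPC) summed to 4968 CPM in cycling and 5083 CPM in non-cycling nuclei, and Pdgfra, the receptor that defines them, had 172 and 136 CPM (0.33). The same list summed to 2995 CPM in the neuron reference and 2105 CPM in the oligodendrocyte reference. Astrocyte markers summed to 1513 and 1686 CPM, with Gfap at 263 and 254 CPM. Without pairing the order of the astrocyte sum was the other way, with 2042 CPM in all members and 1839 CPM in all non-cycling nuclei. At 2000 UMIs, Pdgfra was read in 24.0% of cycling nuclei and 3.42% of neuron reference nuclei, and Gfap in 26.7% and 7.53%. Nuclei holding both were not counted.

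In the pairs, every tested marker of oligodendrocytes, committed precursors and neurons had a ratio below 0. This did not hold for astrocyte markers, of which 3 of 10 tested were above 0. All 9 tested oligodendrocyte markers were below 0 (median -0.56, none past 2-fold), with Mbp at 854 and 1120 CPM and Mog at 27.4 and 50.9 CPM. The sum was 1865 CPM against 2635 CPM, and 18502 CPM in the oligodendrocyte reference. Without pairing the order was the other way, with 2635 CPM in all members and 2248 CPM in all non-cycling nuclei. All 7 tested markers of committed precursors (COP) were also below 0, with a median of -0.49. The other of the 8 listed COP markers, Gpr17, fell short of 10 CPM and had a ratio of 0.285. The COP sum was 1615 CPM in cycling and 2093 CPM in non-cycling nuclei of the pairs. Without pairing the order was the other way, with 2024 CPM in all members and 1837 CPM in all non-cycling nuclei. The 10 tested neuron markers had a median of -0.46, and 1 of them, the splicing factor Rbfox1, was past 2-fold lower (145 and 366 CPM, -1.33). Their summed level was 1570 CPM against 2293 CPM, and 20885 CPM in the neuron reference. Per nucleus, though, the median was 529 CPM in cycling and 546 CPM in non-cycling nuclei. Endothelial, mural, ependymal and fibroblast markers summed to less than 100 CPM each in either paired group.

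Immune markers outside the rule summed higher in cycling nuclei. Of 14, 13 were tested, 11 had ratios above 0, and the median was 0.40. Fyb, an adaptor of T and myeloid cells, had 53.2 and 23.7 CPM (1.13) and was the only one past 2-fold. Cd74, the invariant chain, had 214 and 132 CPM (0.69). The list summed to 915 CPM in cycling and 692 CPM in non-cycling nuclei, against 10155 CPM in immune reference nuclei (0.5% or more of UMIs on the rule's immune genes, no Hmga2). The part of immune RNA in the other ratios was not tested, and with the immune limit at 0.1% the median of the G2/M list was 2.50 (2.44 at 0.2%).

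Among growth factor receptors, 1 of 13 passed 2-fold, beside 3.19% higher and 0.771% lower of all genes tested. Erbb4, a neuregulin receptor, had 1868 and 1706 CPM (0.13), Egfr, the EGF receptor, 289 and 300 CPM (-0.056), and Igf1r 228 and 220 CPM. Met, the receptor of hepatocyte growth factor, was lower at 28.6 and 62.2 CPM (-1.10). Among oncofetal and stem-like genes, 1 of 11 passed, beside the same shares. Lin28b, an RNA-binding repressor of let-7, was lower at 10.8 and 25.7 CPM (-1.18). Its fetal partners Igf2bp3 and Igf2bp2 had ratios of 0.24 and -0.37, and Nes, the intermediate filament of progenitors, 135 and 87.0 CPM (0.63). Hmga2 itself, a rule gene, stood at 1307 and 1400 CPM. Without pairing it had 1028 CPM in all members and 1562 CPM in all non-cycling nuclei.

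Among the 15 genes lowest in cycling nuclei, the non-cycling reads of Qrfpr, Pwwp3b, Gm6999 and Coch sat mostly in 3 nuclei per gene. Qrfpr (chr3:36179424-36222313), a neuropeptide receptor, had 8 UMIs in cycling and 143 in non-cycling nuclei (-3.37, -3.88 to -2.75). The non-cycling UMIs came from 8 nuclei, and 3 of them held 95.8%. Pwwp3b had 10.6 and 39.5 CPM (-1.81), with 81.7% of its non-cycling reads in 3 nuclei, and Gm6999 had 10.0 and 36.2 CPM (-1.76), with 83.5%. Coch had 4.54 and 23.4 CPM (-2.14), with 70.3%. By contrast, the 3 richest cycling nuclei held 5.98% of the Knl1 reads and 5.10% of the Kif11 reads.

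Others among the 15 were read in more nuclei. Pde11a, a cyclic nucleotide phosphodiesterase, had 16.4 and 85.0 CPM (-2.30), read in 79 of 420 non-cycling nuclei (18.8%) and in 10.2% of cycling ones, with 48.0% of its non-cycling UMIs in 3 nuclei. Hs3st4, a heparan sulfate sulfotransferase, had 4.01 and 33.5 CPM (-2.79), with 43.2% in 3 nuclei. Car10 had 17.4 and 59.7 CPM (-1.72), Chrm3, a muscarinic acetylcholine receptor, 11.8 and 37.7 CPM (-1.60), Unc13c, a presynaptic priming protein, 14.3 and 42.1 CPM (-1.49), Cdh12, a cadherin, 12.8 and 36.5 CPM (-1.44), and Epha3, an ephrin receptor, 11.4 and 31.1 CPM (-1.38). The remaining ones were Itprid1 (-1.90), A830018L16Rik (-1.57), Fras1 (-1.56) and Caln1 (-1.45). Of these 15 genes, Hs3st4, Chrm3 and Cdh12 are examples that overlap other annotated genes, and reads of overlapping genes cannot be told apart here. Without nuclei holding a UMI of Snap25, Syt1 or Rbfox3 (116 pairs), Qrfpr, Pwwp3b, Car10 and A830018L16Rik were higher in cycling nuclei, at 0.75, 0.37, 0.89 and 0.64.

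Chromatin accessibility was not used by the rule. In the 420 pairs a smaller share of peaks than of genes passed 2-fold, at unlike minimum levels. Of 13504 peaks with at least 20 FPM (fragments per 1000000 fragments in peaks) in either group, 2 were 2-fold or more higher in cycling nuclei (0.0148%) and 0 were lower (0%). Tested were 10008 of 20292 peaks within 1 kb of a gene start and 3493 of 92591 other peaks. Peaks away from gene starts were thus mostly not tested. The counts of 2 and 0 moved with the nuclei used, to 12 and 2 at 4 or more UMIs of Mki67 and Top2a, 20 and 6 inside the study's limits (312 pairs), and 401 and 368 without nuclei holding a neuronal UMI (116 pairs). With fewer pairs, 20 FPM stands for fewer fragments and counting error is larger. Its part in these counts was not tested. Of the 2 peaks higher in the 420 pairs, 1 covered the Uhrf1 promoter (chr17:56302751-56303395), with 105 and 32 fragments, or 20.5 and 8.36 FPM (1.20, 0.65 to 1.80). The other covered the promoter of Pif1 (chr9:65586593-65587464), a DNA helicase, with 119 and 37 fragments, or 23.3 and 9.66 FPM (1.19, 0.67 to 1.74). Both peaks reached 20 FPM only in cycling nuclei, so they were tested through the group where they were higher. The RNA of both genes was also higher, Uhrf1 at 3.02 and Pif1 at 26.9 and 0.853 CPM (3.91).

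Promoters of cell-cycle genes were slightly more open. Peaks within 1 kb of the start of genes higher in RNA held 1.28% of fragments in cycling nuclei and 1.14% in non-cycling nuclei, a log2 ratio of 0.17 (0.15 to 0.19). Over the promoters of all genes tested that ratio was 0.0096 (0.0065 to 0.013), and over those of genes lower in RNA it was -0.14 (-0.22 to -0.059). By list, mitotic kinases had 0.32 (0.25 to 0.39), kinesins and spindle 0.21 (0.15 to 0.28), DNA replication 0.14 (0.091 to 0.19) and centromere and kinetochore 0.13 (0.068 to 0.20). Chromatin assembly had 0.19, histones 0.18 and G1/S control 0.16, and the lowest were DNA repair at 0.11 (0.035 to 0.19) and condensin and cohesin at 0.088 (0.018 to 0.16). Glial transcription factors had 0.079 (0.0092 to 0.15), p53 targets 0.0084 (-0.061 to 0.078) and growth factor receptors 0.015 (-0.074 to 0.10). CDK inhibitors, at 0.13 (0.031 to 0.24), lay in the range of the cell-cycle lists, and oncofetal genes were at 0.086 (0.0078 to 0.16). These intervals cover counting error only, and the sharing of fragments among few nuclei is not in them.

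Gene by gene, 144 of 175 promoters of cell-cycle lists (82.3%) had a ratio above 0, and 46 had an interval above 0 while 1 had one below. Over all 8690 tested genes with such a promoter, 52.0% were above 0, with 402 intervals above 0 (4.63%) and 281 below (3.23%). Among 58 promoters of glial, receptor and other marker lists, 36 were above 0 (62.1%), with 2 intervals above 0 and 2 below. The median ratio of the cell-cycle promoters was 0.17 in ATAC and 2.03 in RNA. Among listed genes with at least 20 FPM in either group, promoter peaks summed per gene, the largest ratio was that of Aspm, a spindle pole protein, with 157 and 60 fragments (0.93, 0.50 to 1.37). It was followed by Nek2, a centrosome kinase, with 221 and 91 (0.84, 0.49 to 1.20), and Plk1, the polo kinase, with 133 and 56 (0.79, 0.35 to 1.25). Below that minimum, Pbk, a mitotic kinase, had 80 and 24 fragments (1.19, 0.57 to 1.88). Also below it, the immune markers Itgam and Lyz2 had larger ratios on few fragments, 19 and 3 (1.40) and 10 and 1 (1.23). The promoters of the rule genes Mki67 and Top2a had 228 and 132 fragments (0.36, 0.053 to 0.67) and 212 and 114 fragments (0.46, 0.14 to 0.80), although their RNA was absent from the non-cycling nuclei by construction. The promoters of Knl1 and Kif11, with RNA ratios near 5, were read at 43.6 and 38.4 FPM (0.18, -0.12 to 0.48) and at 56.7 and 53.8 FPM (0.074, -0.18 to 0.33), so they were open in both groups.

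**Figure D4:**
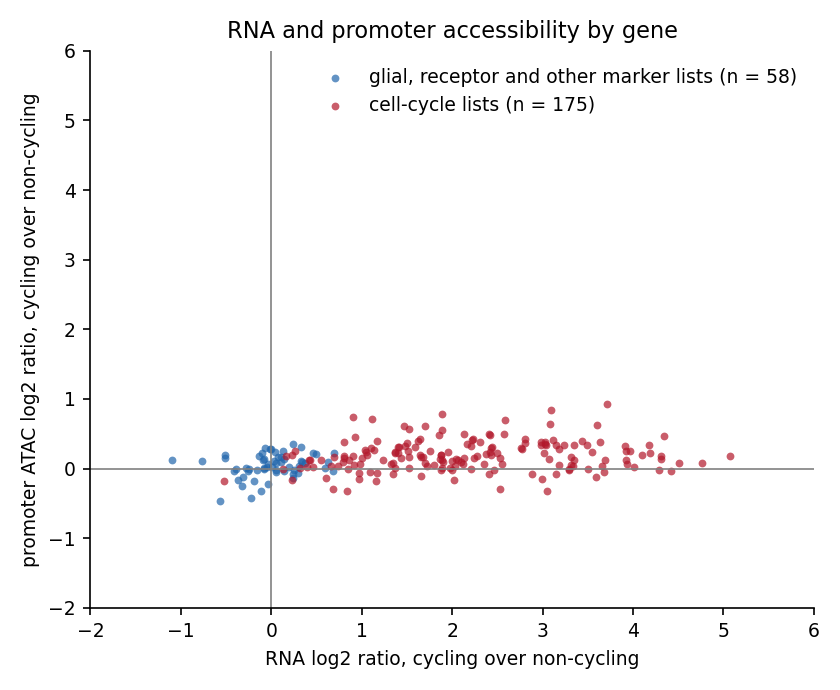
Log2 ratio of promoter ATAC fragments (vertical axis) against log2 ratio of RNA (horizontal axis), cycling over non-cycling, drawn on equal scales; each dot is a listed gene with at least 20 FPM at its promoter in either group (175 cell-cycle genes in red, 58 genes of other lists in blue). RNA ratios of the cell-cycle genes reach past 5, while no promoter ratio, with all peaks within 1 kb of a gene's start summed, exceeds 0.93.

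Over the whole genome, promoter peaks held 47.1% of fragments in cycling and 46.7% in non-cycling nuclei (log2 ratio 0.012, 0.0089 to 0.014). With no matching the ratio turned to -0.034. Per chromosome, the share of fragments differed by log2 ratios between -0.035 (chromosome 6) and 0.035 (chromosome 15).

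The vectors mark cells that descend from electroporated ones. GFP had 718 CPM in paired cycling nuclei (interval 699 to 738) and 589 CPM in non-cycling nuclei (571 to 607), a log2 ratio of 0.29 (0.23 to 0.35). Akaluc had 385 and 331 CPM (0.22). Without pairing the order of Akaluc was the other way, with 326 CPM in all members and 348 CPM in all non-cycling nuclei. GFP stayed higher, at 707 and 591 CPM. Foxr2 had 81.3 and 74.6 CPM (0.12, -0.047 to 0.29), a difference within counting error. The reads of the vector and of the native Foxr2 gene cannot be told apart. In the neuron reference, GFP was at 82.4 CPM and Foxr2 at 12.3 CPM, in the immune reference they were at 175 and 23.2 CPM, and in the oligodendrocyte reference, the highest, at 207 and 30.9 CPM. At 2000 UMIs, GFP was read in 62.5% of cycling nuclei, 60.1% of non-cycling nuclei and 13.5% of neuron reference nuclei.

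ATAC fragments on the Akaluc and GFP vector did not separate the Hmga2 groups beyond counting error. They were 56.1 FPM in cycling nuclei (49.8 to 63.0) and 50.9 FPM in non-cycling nuclei (44.0 to 58.6), a log2 ratio of 0.14 (-0.13 to 0.40). Without pairing, all members had 52.4 FPM and all non-cycling nuclei 52.8 FPM. The neuron and immune references had 2.89 and 2.71 FPM. The vector interval of both Hmga2 groups overlapped, and lay above every reference, the highest of which was 13.9 FPM in the oligodendrocyte reference.

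**Figure D5:**
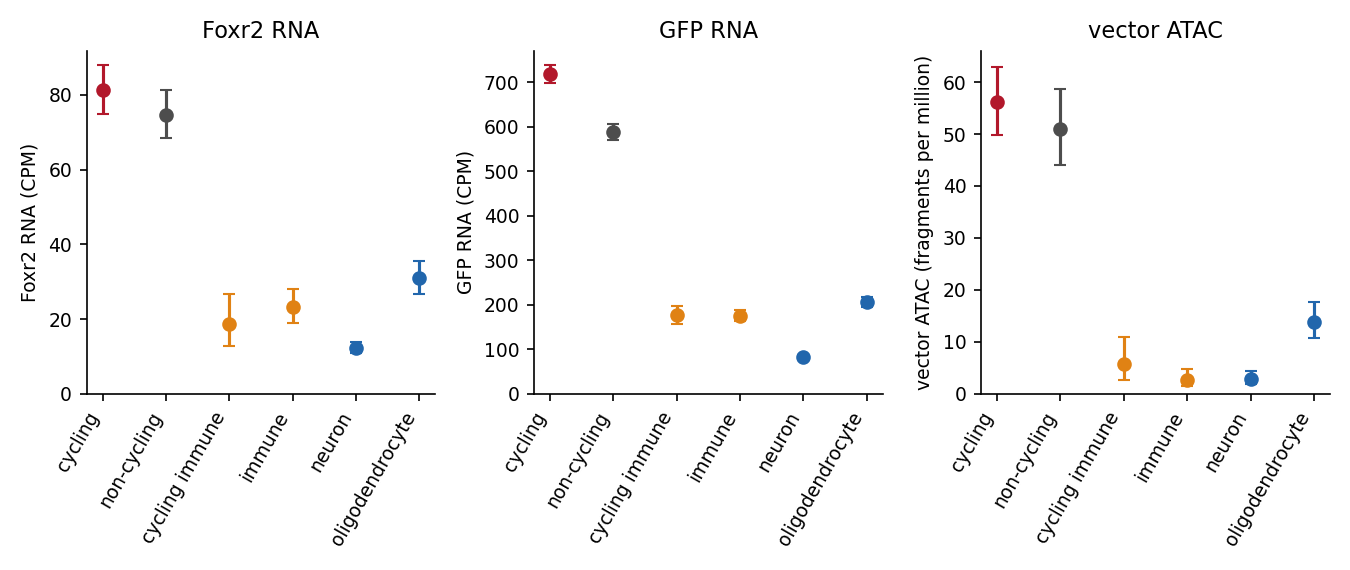
Level of Foxr2 RNA, GFP RNA (CPM) and ATAC fragments on the vector (FPM) in paired cycling and non-cycling nuclei, cycling immune nuclei, and immune, neuron and oligodendrocyte references; points are pooled levels and bars exact Poisson 95% intervals. GFP is at 718 and 589 CPM in the Hmga2 groups and between 82.4 and 207 CPM in the other nuclei.

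The same tumor held 221 cycling immune nuclei (no Hmga2, 2 or more UMIs of Mki67 and Top2a, at least 0.2% immune genes), and 117 pairs with members could be made, at medians of 9452 and 8513 UMIs. Of 11194 genes tested, 1907 were 2-fold higher in members (17.0%) and 1889 lower (16.9%). In these pairs, few mitotic genes passed 2-fold. Both groups were chosen for Mki67 and Top2a, so their levels were partly set by the rule. Of 25 kinesin and spindle genes, 2 were higher and 0 lower (median 0.15), and of 21 tested centromere genes none passed (0.17), beside a median of 0.12 over all genes. Over all nuclei, without pairing, members had less of these lists, with 1650 against 2828 CPM of the kinesin and spindle list and 1202 against 2431 CPM of the centromere list. In the pairs, of 37 tested DNA replication genes, 9 were higher and 0 lower (median 0.79). Of 20 repair genes, 7 were higher (0.77), among them Exo1 with 70.7 and 19.8 CPM (1.78, 1.16 to 2.46) and Fancd2 with 92.9 and 31.2 CPM (1.54). Dnmt1 had 193 and 54.9 CPM (1.80). Without pairing, members had less of the replication and repair lists too, with 1517 against 1887 CPM and 1065 against 1610 CPM.

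The D cyclins differed in both directions between the cell types. Ccnd1 had 239 CPM in members and 64.0 CPM in cycling immune nuclei (1.89, 1.54 to 2.25), and Ccnd3, used in blood cells, had 27.0 and 266 CPM (-3.25, -3.75 to -2.79). Ccnd2 had 153 and 147 CPM (0.058, -0.22 to 0.34). Cdk6 was lower in members at 79.7 and 168 CPM (-1.07), and Rb1, the retinoblastoma gene, at 114 and 258 CPM (-1.17). Cdkn2a was higher at 101 and 30.5 CPM (1.69). Egfr had 286 and 25.1 CPM (3.45), Igf2bp2 137 and 19.1 CPM (2.79) and Foxr2 81.8 and 19.1 CPM (2.05). Median ATAC fragments were 6908 and 6951, with a median log2 ratio of -0.10 within pairs (-0.45 to 0.35), an interval that includes 0.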

How the data were processed

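Nuclei of the Foxr2 p53LOF tumor were read with the 10x Multiome assay. The authors deposited raw counts (UMIs per gene, transposition events per peak) made with Cell Ranger ARC 2.0.0 on mm10 plus vector sequences, with peaks called per library and no normalization. Peak counts were even in 80.7% of nonzero entries and were turned into fragments by dividing by 2, rounded up. Members and gene lists were chosen with earlier results of these data known. Members were paired on UMIs (within 10%) without reuse, deepest first. Counts were summed per group to CPM, ratios used an added 1 CPM, and exact binomial (conditional for ratios) or Poisson 95% intervals of levels and ratios cover counting error only. Called means 2-fold or more at 10 CPM (peaks 20 fragments per 1000000) in either group. With 1 library there was no test. Ratio intervals hold the non-cycling level fixed, so genes with 1 to 3 UMIs there are given as plain folds. Medians have order-statistic intervals over nuclei or genes. Named genes were the 15 highest and 15 lowest ratios at 20 CPM or more whose interval excluded no change, without rule, mitochondrial and vector genes, and list members by level or range; Brca1, Polq, Foxm1, the D cyclins and other single list members were chosen after their values were seen. Doublets were marked by Scrublet in scanpy 1.11.5 at an expected 8% and left in. Gene positions are from GENCODE M21 (GRCm38, the assembly of mm10). Python 3.11.15, NumPy 2.4.6, SciPy 1.17.1 and matplotlib 3.10.9 were used, and the pairing and ratio steps were tested on simulated counts. The replicate 2 counts of Foxr2 alone were not used.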

Additional observations from a re-analysis of the deposited data

How the results depend on the processing

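All values rest on 1 tumor library, and members held 21.6% of its UMIs. The cause of each shift below was not tested. No paired analysis was possible because the groups compared are nuclei of 1 library, with no replicates to pair. The pairs in the results are nuclei matched on depth. The alternatives on 30000 UMIs, on the mitochondrial share in both groups, on neuronal UMIs and on equal weights were chosen after seeing the data.

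Against 335 genes higher and 81 lower, no CPM minimum gave 534 and 213, a 50 CPM minimum 115 and 22, thinning to 2000 UMIs 697 and 424, and leaving out nuclei with a Snap25, Syt1 or Rbfox3 UMI (116 pairs) 739 and 295. Genes lower were 52 with no matching, 174 with 4 or more UMIs of Mki67 and Top2a, 123 with an immune limit of 0.1% and 184 with a mitochondrial share of at most 1%. The G2/M list median ranged from 2.37 to 3.15. The S list median of 1.94 moved to 1.46 with no matching, 2.28 at 4 or more UMIs of Mki67 and Top2a, 2.39 without neuronal UMIs and 2.18 with each nucleus weighted equally. Fragments went from a log2 ratio of 0.39 to 1.09 with no matching, 0.11 inside the study's limits and 0.016 when fragments were paired too, as that pairing fixes them.

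Peaks higher and lower, 2 and 0, were 1 higher with no matching, 6 higher with ATAC pairing, 12 and 2 at 4 or more UMIs of Mki67 and Top2a, 4 and 1 at 4 or more Hmga2 UMIs, 4 and 1 without Scrublet doublets, 2 lower at the immune limit of 0.1%, 20 and 6 inside the study's limits, 401 and 368 without neuronal UMIs, 4 and 5 at 30000 UMIs or less, 15 and 2 at a mitochondrial share of at most 1%, and 0 higher at a minimum of 50 FPM. The promoter share ratio of 0.012 turned to -0.034 with no matching, and was 0.016 with ATAC pairing, 0.019 at 4 or more UMIs of Mki67 and Top2a, 0.020 at 4 or more Hmga2 UMIs, 0.021 without Scrublet doublets, 0.016 at the immune limit of 0.1% and 0.019 at 30000 UMIs or less. GFP, 0.29, was 0.21 with ATAC pairing, 0.15 at 4 or more UMIs of Mki67 and Top2a, 0.18 at 4 or more Hmga2 UMIs, 0.21 without Scrublet doublets, 0.20 inside the study's limits, 0.54 without neuronal UMIs, 0.36 at 30000 UMIs or less and 0.40 at a mitochondrial share of at most 1%. Foxr2 ranged from -0.044 to 0.26. Members were 312 inside the study's limits and 367 at a mitochondrial share of at most 1%.

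Signs turned with no matching for the median of Foxr2 and Trp53 (-0.075), COP markers (0.14), endothelial markers (1.41) and mural markers (0.039). Without neuronal UMIs they turned for Foxr2 and Trp53 (-0.066), neuron markers (0.15), Qrfpr (0.75), Pwwp3b (0.37), Car10 (0.89) and A830018L16Rik (0.64). Endothelial markers were 0.11 at 30000 UMIs or less, 0.37 thinned and 0.44 with no CPM minimum, fibroblast markers 0.073 at a mitochondrial share of at most 1%, and Foxr2 and Trp53 -0.057 thinned. Of 420 values of the 30 named genes under alternatives, 416 kept their direction, and the exceptions are the 4 genes named above without neuronal UMIs. All 210 values of the higher genes stayed past 2-fold, as did 193 of 210 of the lower genes.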
